A study of Mus musculus with 24 samples.

Results

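Chronic mild stress (CMS) had a different effect in the amygdala (Amy) and the hippocampus (Hippo) at 898 of 45037 probe sets (1.99%), and 203 of these (0.451%) rose in one area while they fell in the other. Among the named genes, Tac2, Calb2 and Tfrc fell in Amy and rose in Hippo, and Ccn2, Fmod and Gjb2 did the reverse. The comparison takes the 12 of 24 arrays whose labels name these areas, 3 for each treatment in each area, and asks for each probe set whether the change with CMS in Amy equals that in Hippo. Every probe set of the array entered it except the 64 Affymetrix controls, which left 45037. All mice were wild-type C57BL/6 males aged 6-8 weeks. The CMS mice met unpredictable mild stressors, such as a tilted cage, wet bedding, restraint or the presence of a rat, on 6 days per week for 4 weeks, and the controls lived in standard cages. No transgene, deletion or drug is named for any group. The labels call each array a biological replicate while the study's methods name pooled RNA, so the p-values measure the spread between these samples, which may be in part technical. The other 12 arrays hold prefrontal cortex and cerebral cortex.

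The amygdala assigns fear and reward value to events and drives hormonal and autonomic responses through the hypothalamus, and the hippocampus forms memories of context and restrains the same hormonal axis. Both respond to repeated stress, classically with opposite changes of dendrites in principal neurons. Both lie beside regions of the diencephalon, such as the hypothalamus, the thalamus and the habenula, whose neurons carry their own sets of peptides, receptors and transcription factors.

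Each deposited value is a log2 intensity with the probe set's median across the 24 arrays taken off, so the values compare arrays and give no absolute level. A negative value is below that median, and a change of 1 is 2-fold. The effect of CMS in an area is the mean of its 3 CMS arrays minus the mean of its 3 control arrays, and the difference is the effect in Amy minus that in Hippo. It was called at a Benjamini-Hochberg adjusted p under 0.05 from limma and an absolute size over 1. Group by group, the median SD lay between 0.033 and 0.066 on this scale, and the median SE of the difference was 0.086. The nearest sizes on each side of the size threshold were 1.00149 and 0.999684. The area labels fitted their own markers in both treatments for most genes. Of 18 hippocampal CA field markers and 18 of the dentate gyrus, 14 each were higher in Hippo in both, and 3 each higher in Amy. Of 21 amygdala markers 16 were higher in Amy in both and 4 higher in Hippo. Other regions also stood higher in Amy in both, with 22 of 22 striatum markers and 16 of 23 cortical layer markers (5 the reverse). The median of Amy minus Hippo in controls was 3.08 for striatum markers and 1.39 for amygdala markers. The part of neighbouring tissue in these values was not tested.

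The 898 probe sets whose CMS effect differed between the areas were 285 (0.633%) with a higher and 613 (1.36%) with a lower effect in Amy than in Hippo. By the adjusted p of each area in the same fit, 440 changed in Amy alone, 168 in Hippo alone, 52 in both in the same direction and 35 in neither. The remaining 203 changed in both areas in opposite directions. Of these, 75 rose in Amy and fell in Hippo, and 128 fell in Amy and rose in Hippo. The first count was 48 after quantile normalization and 32 after median centring of each array, and the second was 222 with array weights. The arrays of CMS and control did not overlap in either area at 196 of the 203. Over all probe sets 34.4% had CMS and control arrays apart in opposite directions in the areas. Of the 898, 722 matched 1 gene symbol, for 642 genes.

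Bacterial RNAs that are added before hybridisation also differed, although they come from no mouse. Their mean was 0.015 in control Amy and 0.82 in CMS Amy, and -1.11 in control Hippo and -1.48 in CMS Hippo, with SDs of 0.022 to 0.075 over 3 arrays in the CMS groups and a difference of 1.17 on the log2 scale. The poly-A controls, added before labelling, differed by 0.22, and the 3′ minus 5′ values of Gapdh and Actb by 0.19 and 0.15. Between the areas the poly-A controls stood far apart, at 0.37 and 0.50 in control and CMS Amy and -4.02 and -4.11 in Hippo. Actb 3′ minus 5′ was -0.023 and 0.072 in control and CMS Amy and -0.44 and -0.49 in Hippo. The part of these shifts in the calls and in the distances between the areas was not tested.

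**Figure D1:**
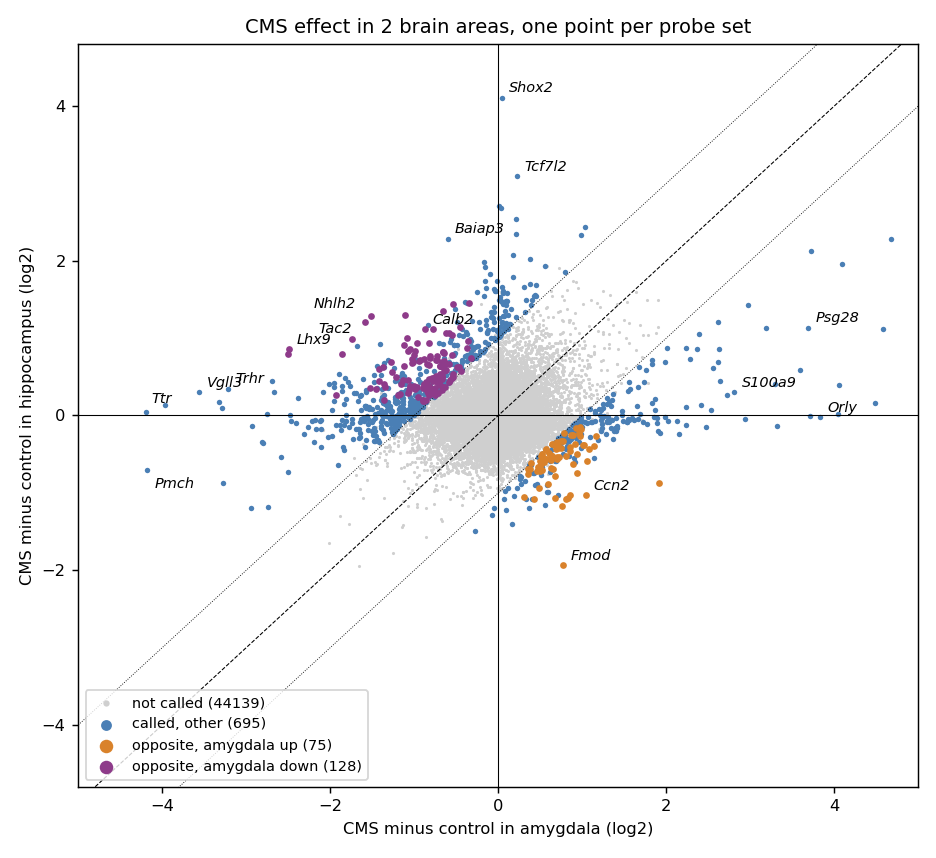
CMS effect in the amygdala (x axis, log2) against that in the hippocampus (y axis, log2) for each of the 45037 probe sets. The dashed line marks equal effects and the dotted lines a difference of 1. The 75 probe sets in orange rose in the amygdala and fell in the hippocampus, the 128 in purple did the reverse, and most blue points lie near 1 axis, where a single area moved. The 75 became 48 after quantile normalization and 32 after median centring of each array.

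Opposite movement of a full 2-fold in both areas was seen at 4 probe sets, those of Tac2, Nhlh2 and Ccn2 and 1 without a gene symbol. Tac2 encodes the precursor of neurokinin B, a tachykinin that neurons of the central amygdala, the habenula and the arcuate nucleus release. In Amy the 3 control arrays of Tac2 read 1.87, 1.89 and 1.85 and the 3 CMS arrays 0.48, 0.37 and 0.0056. In Hippo the controls read -1.57, -1.79 and -1.22 and the CMS arrays -0.28, -0.34 and -0.33. Tac2 thus fell in Amy by 1.58 (SE 0.15) and rose in Hippo by 1.21 (SE 0.15), with no overlap of CMS and control in either area (difference -2.79, SE 0.21, limma, adjusted p = 7.31e-05). Its distance between the areas shrank from 3.39 in controls to 0.61 with CMS, with Amy above Hippo in both.

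Nhlh2 encodes a basic helix-loop-helix transcription factor of neuroendocrine neurons. Its control arrays in Amy read 1.86, 1.95 and 1.12 and its CMS arrays 0.23, 0.13 and 0.044. Hippo gave 0.23, 0.79 and 0.017 in controls and 2.12, 1.02 and 1.78 with CMS. The areas exchanged places, since Amy stood 1.30 above Hippo in controls and 1.51 below it with CMS (difference -2.80, SE 0.46, limma, adjusted p = 0.0017). The spread was wide in control Amy and in both groups of Hippo, although CMS and control arrays did not overlap in either area.

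Ccn2, the connective tissue growth factor that marks subplate neurons of deep cortical layer 6 and also vessel and meningeal cells, moved the other way. Control Amy read -1.16, -1.11 and -1.07 and CMS Amy -0.12, -0.013 and -0.077. In Hippo, where it was already lower, controls read -2.11, -2.16 and -2.08 and CMS arrays -3.19, -3.27 and -2.98. The rise in Amy of 1.04 and the fall in Hippo by 1.03 were of nearly equal size, each with an SE of 0.066, and no arrays overlapped (difference 2.07, SE 0.093, limma, adjusted p = 7.85e-06). CMS thereby widened the distance between the areas from 1.00 to 3.07.

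Upstream sequence was at hand for 14 of the 20 genes named here for opposite movement, and 3 are shown, Tac2 and Nhlh2, which moved past 2-fold in both areas, and Fmod, which has the largest difference of the reverse direction. The 250 bases before the start of each are given 5′ to 3′ from RefSeq (GRCm38.p6), with capitals at the letters CANNTG, the E-box that basic helix-loop-helix factors such as Nhlh2 recognise, read on both strands. The letters stand in 12 of the 14 sequences and in 66.2% of 32851 upstream sequences of the same length in the table. The core of the cAMP response element, TGACG, which would also be in capitals, is in 2 of the 14 and in 17.8% of all, and in none of the 3 shown.
Tac2, chr10:127724228-127724477, + strand: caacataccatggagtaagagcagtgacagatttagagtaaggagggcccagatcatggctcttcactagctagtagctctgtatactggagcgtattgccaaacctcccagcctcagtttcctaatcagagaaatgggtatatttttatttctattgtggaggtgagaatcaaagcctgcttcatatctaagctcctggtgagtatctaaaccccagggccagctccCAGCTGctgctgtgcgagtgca
Nhlh2, chr3:102009895-102010144, + strand: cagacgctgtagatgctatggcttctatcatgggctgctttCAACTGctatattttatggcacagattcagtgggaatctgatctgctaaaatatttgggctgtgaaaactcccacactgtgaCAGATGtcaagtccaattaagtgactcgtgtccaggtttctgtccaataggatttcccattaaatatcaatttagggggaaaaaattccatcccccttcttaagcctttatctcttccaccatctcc
Fmod, chr1:134037004-134037253, + strand: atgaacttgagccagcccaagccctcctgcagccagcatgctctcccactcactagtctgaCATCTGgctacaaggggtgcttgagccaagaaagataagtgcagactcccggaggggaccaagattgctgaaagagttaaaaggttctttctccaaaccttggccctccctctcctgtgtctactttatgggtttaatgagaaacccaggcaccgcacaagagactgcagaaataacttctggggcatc
A match is only a run of letters in this window, and binding was not measured.

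The other genes that fell in Amy and rose in Hippo were led by AW551984, Cbln1, Tfrc, Extl3, Calb2, Lhx9, Ltn1 and Smad5. Calb2 encodes calretinin, a calcium-binding protein of interneurons and of midline thalamic neurons. Calb2 read 0.32, 0.34 and 0.38 in control Amy and -0.32, -0.71 and -0.56 in CMS Amy. In Hippo it read -0.60, -0.66 and -0.37 in controls and 0.53, 0.59 and 0.58 with CMS. The CMS arrays of Hippo were the highest of all 12 and no groups overlapped within an area (difference -1.98, SE 0.14, limma, adjusted p = 5.45e-05). Tfrc, the transferrin receptor that takes iron into cells, was nearly level between the areas in controls, at 0.15, -0.085 and -0.089 in Amy and 0.058, -0.043 and 0.30 in Hippo. With CMS it read -0.69, -1.32 and -0.92 in Amy and 1.01, 1.02 and 1.11 in Hippo, so that all CMS arrays of Amy lay below and all those of Hippo above the controls of both areas (difference -1.91, SE 0.21, limma, adjusted p = 0.00035). Of the 3 Tfrc probe sets, 2 were called, and the differences ran from -1.91 to 0.0070.

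Cbln1, a secreted organizer of synapses, read -0.54, -0.87 and -0.35 in control Amy and -1.54, -2.70 and -2.73 with CMS, and -1.98, -1.34 and -1.59 in control Hippo against -0.61, -0.76 and -0.57 with CMS. The groups were apart in both areas and 2 of its 3 probe sets were called (difference -2.73, SE 0.44, limma, adjusted p = 0.00164). Lhx9, a LIM-homeodomain factor of the developing diencephalon and amygdala, fell in Amy by 2.49 and rose in Hippo by 0.86 (difference -3.35, SE 0.40, limma, adjusted p = 0.000457). Its arrays read 3.17, 3.12 and 3.03 in control Amy, 0.25, 0.57 and 1.04 in CMS Amy, 2.99, 4.00 and 2.98 in control Hippo and 4.15, 4.03 and 4.37 in CMS Hippo, so the groups were far apart in Amy, while in Hippo 1 control array came close to the CMS arrays. Of the 4 Lhx9 probe sets 3 were called lower and the fourth gave 0.11. The ubiquitin ligase Ltn1 and the BMP signal transducer Smad5 had differences of -1.90 and -1.91, each at 1 probe set, with 5 and 2 others of the same gene not called.

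Among the genes that rose in Amy and fell in Hippo, Fmod had the largest difference. Fmod encodes fibromodulin, a small proteoglycan that organizes collagen fibrils in connective tissue. Its leading probe set read 0.33, 0.35 and 0.50 in control Amy and 1.25, 1.20 and 1.05 with CMS. The Hippo arrays read -2.55, -2.42 and -2.83 in controls and -4.21, -4.50 and -4.89 with CMS, the lowest of all (difference 2.71, SE 0.23, limma, adjusted p = 0.000137). Both areas were free of overlap, but only 1 of 6 Fmod probe sets was called, and the lowest of the others differed by 0.25. Gjb2, the gap junction protein connexin 26 of meningeal cells, read 0.036, -0.082 and -0.082 in control Amy and 0.76, 0.77 and 0.83 with CMS. In Hippo it read -1.24, -1.72 and -1.43 in controls and -2.57, -2.28 and -2.74 with CMS, again with all groups apart (difference 1.90, SE 0.19, limma, adjusted p = 0.000234). Cdhr1, a photoreceptor cadherin also found in the olfactory system, rose by 0.94 in Amy and fell by 0.74 in Hippo (difference 1.68, SE 0.23, limma, adjusted p = 0.000815).

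The other leading members of that direction were Myl4, Sowahb, Arg2, Krt12, Rasgef1c and Rgs20, with differences from 1.34 for Rgs20, a regulator of G-protein signalling, to 1.93 for Arg2, the mitochondrial arginase. Their effects lay between 0.65 and 0.86 in Amy, the highest being Myl4, an embryonic and atrial myosin light chain, and between -1.17 and -0.70 in Hippo. The leading probe sets of all 20 genes kept opposite signs in 20 other settings of the analysis. In Ccn2, Gjb2, Sowahb, Fmod, Cdhr1, Rgs20, Tac2, AW551984, Tfrc and Calb2 both effects also stayed significant in each setting. These settings refit the arrays on which the probe sets were chosen, so the kept signs are no independent evidence. With the probe sets of a gene averaged, AW551984, Lhx9, Ltn1, Smad5, Myl4 and Rgs20 did not meet the criteria for opposite movement. The least stable calls were those of Lhx9, which stayed opposite in 7 of the 20 settings, Rasgef1c in 8, and Arg2 and Krt12 in 9 each. Smad5 stayed opposite in 10 and Cbln1 in 12, and neither did so after quantile normalization or median centring of each array.

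**Figure D2:**
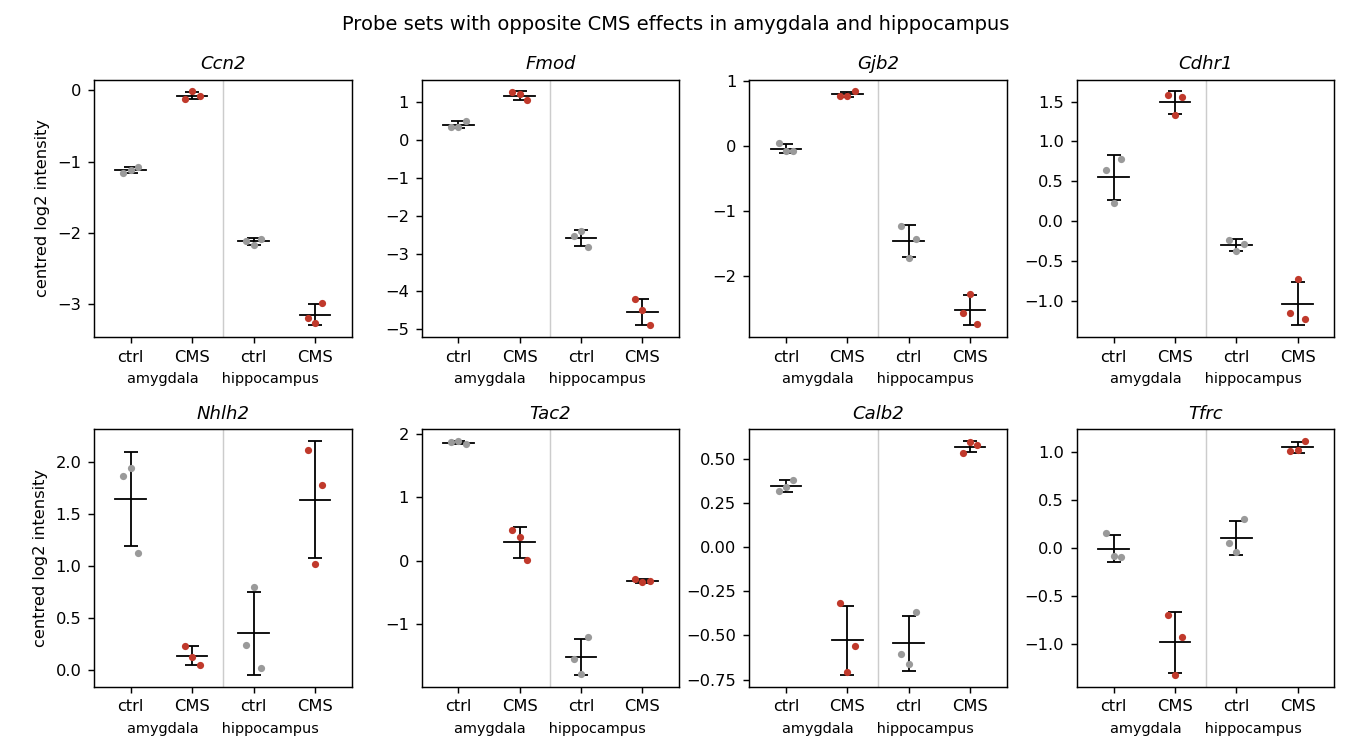
Centred log2 intensity (y axis) of 8 probe sets in each array, with gray points for controls and red points for CMS, and a bar for the mean and SD of 3 arrays. In the upper row CMS lies above control in the amygdala and below it in the hippocampus, and in the lower row the reverse holds.

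The opposite movements changed how the areas stood to each other. Of the 128 probe sets that fell in Amy and rose in Hippo, 98 were higher in Amy than in Hippo in controls and 21 with CMS. The median distance, Amy minus Hippo, went from 0.63 to -0.88. Of the 75 that did the reverse, 45 were higher in Amy in controls and 70 with CMS, with a median distance of 0.17 that became 1.34. These sets are those of the deposited scaling, and 37 of the 75 and 81 of the 128 remained opposite after quantile normalization, and 32 and 107 after median centring of each array. Since the effect of CMS in each area is part of this distance, these values describe the calls and add no test. Over all 898 called probe sets the distance was larger with CMS in 621, smaller in 277, and changed its sign in 370.

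The cortical arrays took no part in the calls. For these genes most effects in the cerebral cortex had the sign of Hippo and most in the prefrontal cortex the sign of Amy. Of the 128 probe sets that fell in Amy and rose in Hippo, 104 were higher with CMS in the cerebral cortex (median effect 0.56) and 21 in the prefrontal cortex (median -0.20). Of the 75 with the reverse pattern, 21 were higher in the cerebral cortex (median -0.15) and 54 in the prefrontal cortex (median 0.14). Among named genes Tfrc had an effect of 1.48 in the cerebral cortex, whereas Tac2, Nhlh2 and Calb2 had cortical effects of 0.072, -0.036 and -0.098 there. These are means of 3 CMS against 3 control arrays and were not tested here. The share of all probe sets with each sign in the 2 cortical areas was not counted. The counts therefore describe these probe sets and cannot be set against that share.

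Most of the largest negative differences came from genes that moved in a single area. Ttr, the thyroxine and retinol carrier that the choroid plexus makes, was -2.38, -2.06 and -1.93 in control Amy and -6.84, -5.46 and -6.66 in CMS Amy. In Hippo it stayed at 3.75, 3.60 and 3.76 in controls and 3.66, 3.85 and 3.75 with CMS, and these overlapped (difference -4.25, SE 0.43, limma, adjusted p = 0.000257). All 4 Ttr probe sets were called, with differences from -4.25 to -3.39. Of 23 choroid plexus markers measured as genes, Ttr was the 1 called and the list's median difference was -0.081, beside 0.067 for all genes, but 0.13 after quantile normalization. The median of that list per array was -0.085 to -0.019 in control Amy, -0.016 to 0.016 in CMS Amy, 1.31 to 1.66 in control Hippo and 1.64 to 1.91 in CMS Hippo.

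Several genes of peptide signalling fell in Amy. Pmch, the precursor of melanin-concentrating hormone from the lateral hypothalamus, read 4.38, 4.40 and 4.41 in control Amy and 0.10, 0.33 and 0.21 in CMS Amy, with no overlap. Hippo read 0.33, 0.20 and 1.46 in controls, where 1 array stood above the rest, and -0.14, 0.0045 and -0.0045 with CMS (difference -3.47, SE 0.39, limma, adjusted p = 0.000341). Trhr, the receptor of thyrotropin-releasing hormone, read 3.71, 3.60 and 3.21 in control Amy and 0.16, 0.19 and 0.52 with CMS, while all Hippo arrays lay between 0.040 and 0.91 (difference -3.56, SE 0.30, limma, adjusted p = 0.000123). Its ligand precursor Trh fell in Amy by 1.27 and had an effect of 0.047 in Hippo (difference -1.32, SE 0.40, limma, adjusted p = 0.026). Calcr, the calcitonin receptor, and Grp, gastrin-releasing peptide, had gene-level differences of -2.13 (SE 0.34, limma, adjusted p = 0.00179) and -2.45 (SE 0.25, limma, adjusted p = 0.000283). Pnoc, the nociceptin precursor, fell in Amy by 1.36 and rose in Hippo by 0.41 (difference -1.77, SE 0.14, limma, adjusted p = 9.33e-05).

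Vgll3, a cofactor of TEAD transcription factors, read 2.82, 2.73 and 2.90 in control Amy and -0.65, -0.76 and -0.81 with CMS, and its Hippo arrays lay between -0.10 and 0.54 (difference -3.86, SE 0.20, limma, adjusted p = 1.2e-05). All 3 Vgll3 probe sets were called. Growth hormone, Gh, read 2.94, 3.04 and 2.88 in control Amy and between 0.0079 and 0.036 in the 3 CMS arrays, with Hippo at -0.035 to 0.18 (difference -2.80, SE 0.062, limma, adjusted p = 2.9e-07). It was the 1 gene called among 11 pituitary hormone genes measured, and 3 of its 4 probe sets were called. Averaged over the 4, Gh fell in Hippo too, by 0.79 (SE 0.17, limma, adjusted p = 0.00995), beside 2.70 in Amy.

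Hippo alone moved for Shox2, a homeodomain factor of thalamic and habenular neurons, with 4.21, 3.73 and 4.45 in its CMS arrays and 0.015 to 0.037 in its controls. In Amy all 6 arrays lay between -0.0085 and 0.043 (difference -4.07, SE 0.20, limma, adjusted p = 1.15e-05). The other Shox2 probe set differed by -0.30 and was not called. Tcf7l2, a Wnt pathway factor that marks the thalamus in the adult brain, read -1.30, -1.80 and -0.60 in control Hippo and 1.88, 1.97 and 1.72 in CMS Hippo, against 0.49, 0.77 and 0.57 and 0.48, 1.33 and 0.69 in control and CMS Amy (difference -2.87, SE 0.42, limma, adjusted p = 0.00112). Of its 4 probe sets 3 were called. Baiap3, which supports exocytosis of dense-core vesicles, rose in Hippo by 2.29 (SE 0.35) from controls of -2.07, -3.54 and -1.97 to -0.11, -0.26 and -0.35. In Amy its arrays read 3.23, 3.23 and 3.34 in controls and 2.74, 2.53 and 2.71 with CMS, without overlap. That effect of -0.60 did not pass (limma, adjusted p = 0.206), but the fit pools 1 spread over the 4 groups. The SD was 0.88 in control Hippo, and 0.067 and 0.11 in control and CMS Amy. The difference of Baiap3 was -2.89 (SE 0.49, limma, adjusted p = 0.00205).

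The largest positive difference with a symbol was at Orly, a multicopy Y-linked gene whose copies the probes may not tell apart. It read 3.65, 3.68 and 4.13 in CMS Amy and within -0.016 to 0.024 in all other arrays of both areas (difference 3.85, SE 0.15, limma, adjusted p = 4.32e-06), and 2 of its 4 probe sets were called. Averaged over the 4, Orly rose in Hippo too, by 0.51 (SE 0.15, limma, adjusted p = 0.0263), beside 2.27 in Amy. The gene-level difference was 1.76 (SE 0.21, limma, adjusted p = 0.000455). Psg28, a pregnancy-specific glycoprotein, rose in both areas, by 3.69 in Amy and 1.14 in Hippo (difference 2.55, SE 0.31, limma, adjusted p = 0.000494). S100a9, a calcium-binding protein of neutrophils, read -1.42, -1.43 and -1.46 in control Amy and 1.55, 0.89 and 1.67 with CMS. In Hippo it read -1.40, -1.39 and -1.41 in controls and -1.08, -0.89 and -1.34 with CMS, a small shift without overlap that did not pass the adjusted p (difference 2.51, SE 0.26, limma, adjusted p = 0.000272). Its partner S100a8 rose in both areas, with a gene-level difference of 1.55 (SE 0.48, limma, adjusted p = 0.0288), and these were the 2 called of 20 neutrophil genes, whose median was 0.11.

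The other genes at the top of this direction rose in Amy with little change in Hippo. They were Ackr4, a scavenging chemokine receptor, Sppl3, an intramembrane protease, Hdgf, a growth factor, Amigo1, a subunit of neuronal potassium channels, and Sdr39u1. Their differences ran from 2.09 for Sdr39u1 to 2.62 for Ackr4, with effects in Hippo from -0.22 to -0.069. For each, 1 probe set was called of 2 to 5 on the array, except Ackr4 with 2 of 3. Several probe sets of a gene often disagreed in this way: of 523 genes on more than 1 probe set that held a call, 457 had exactly 1 called, and 3 had calls in both directions.

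**Figure D3:**
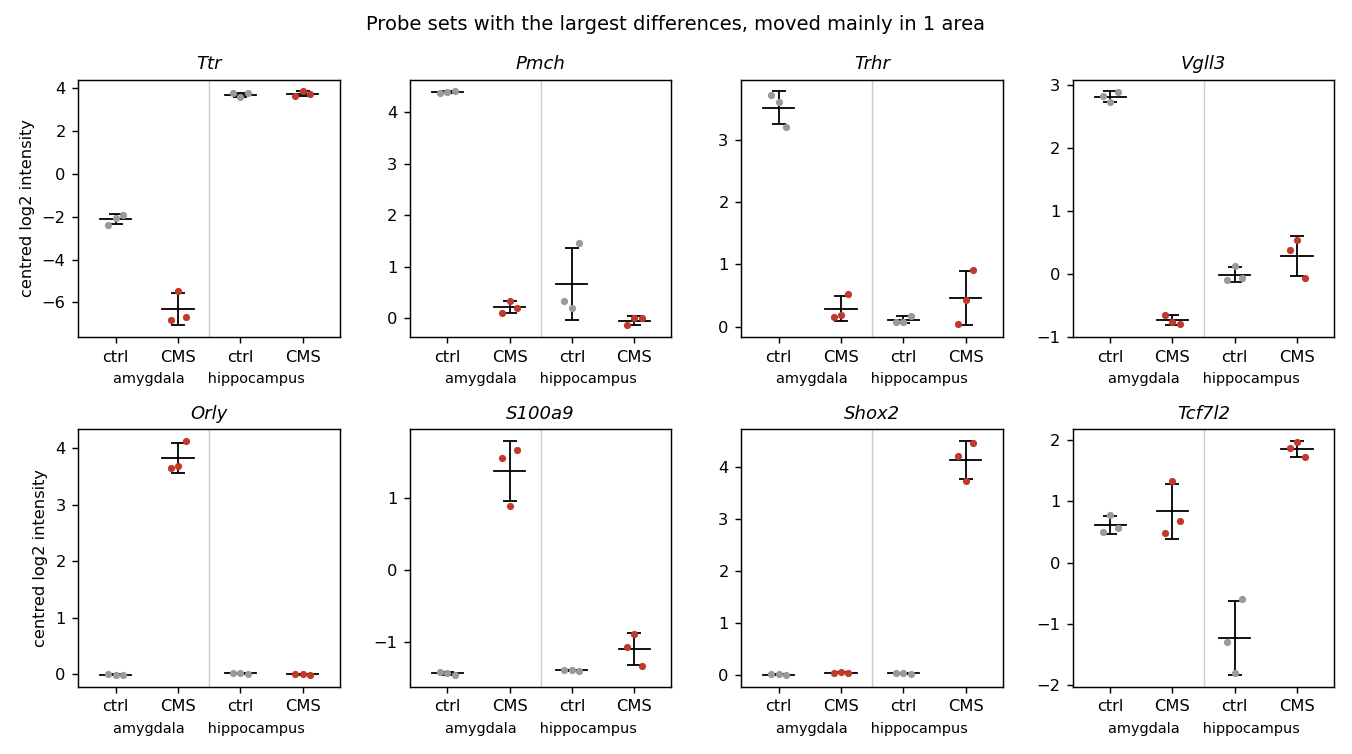
Centred log2 intensity (y axis) of 8 selected probe sets with large differences. Gray points are controls, red points are CMS and a bar gives the mean and SD of 3 arrays. At each probe set shown, the effect of CMS passed the adjusted p in a single area. The selection is not the 8 largest differences. Those of Fmod, Ackr4, Psg28, Lhx9 and Baiap3 were larger in size than that of S100a9 and are not shown. Ttr, Pmch, Trhr and Vgll3 fell and Orly and S100a9 rose with CMS in the amygdala, while Shox2 and Tcf7l2 rose with CMS in the hippocampus.

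Averaging the probe sets of each gene gave 18193 genes, of which 173 (0.951%) were called, 75 higher (0.412%) and 98 lower (0.539%) in Amy than in Hippo. At the adjusted p alone 33.4% of genes were higher and 8.63% lower in Amy, with a median difference of 0.067 over all genes. Among probe sets past the adjusted p the share higher in Amy was 82.4% as deposited, 58.9% after quantile normalization and 57.4% after median centring of each array. At the gene level 48 (0.264%) moved in opposite directions in the areas, 25 up and 23 down in Amy. The genes were then grouped in 36 lists of markers, pathways and responses, with 849 measured members of which 51 were called. In whole tissue fewer cells of a type and less RNA per cell cannot be told apart.

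Markers of the thalamus and habenula held the most calls of the 36 lists apart from the genes the study names, with 14 of 28 called lower in Amy than in Hippo and none higher, beside 0.539% and 0.412% of all genes. Their median effect was 0.0047 in Amy and 0.70 in Hippo, where 22 of 28 rose at the adjusted p, beside 5.26% of all genes. In Amy 3 rose and 6 fell. They hold Baiap3, Tac2, Shox2 and Lhx9, and also Zic1, a zinc finger factor, which rose in Hippo by 2.18 and in Amy by 0.30 (difference -1.89, SE 0.043, limma, adjusted p = 6.3e-08). Slc17a6, the vesicular glutamate transporter of diencephalic neurons, fell in Amy by 0.47 and rose in Hippo by 0.91 (difference -1.38, SE 0.064, limma, adjusted p = 8.78e-06). The 2 Slc17a6 probe sets were both called. Of the 28 genes 10 are among those the study listed from these arrays or measured by qPCR, and without them 6 of 18 were called lower, with a median difference of -0.29 in place of -1.05. The list's median per array was -0.13 to -0.075 in control Hippo and 0.20 to 0.35 in CMS Hippo, against 0.025 to 0.058 and 0.030 to 0.065 in control and CMS Amy. What part tissue bordering the hippocampus had in these values was not tested.

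**Figure D4:**
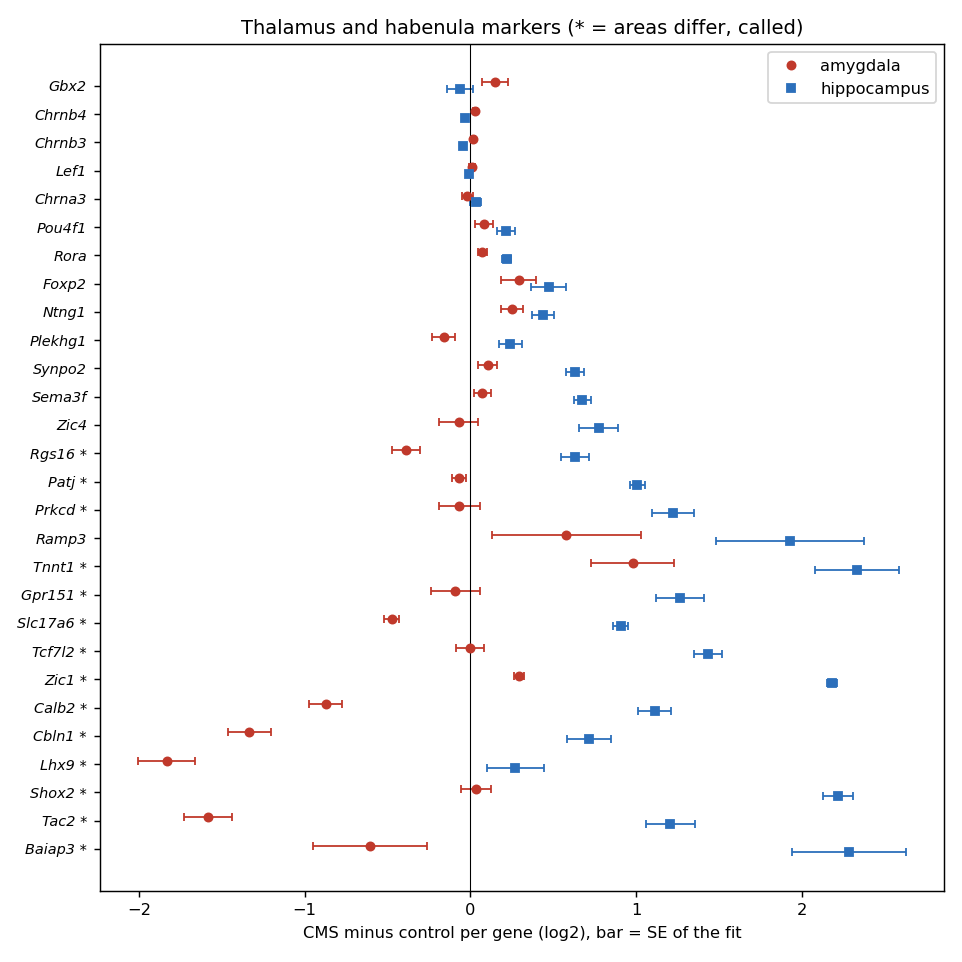
CMS effect per gene (x axis, log2) for 28 markers of the thalamus and habenula in the amygdala (red circles) and the hippocampus (blue squares), with bars for the SE of the fit and an asterisk for the 14 genes whose effects differed between the areas. The blue squares lie right of 0 for most genes, and red circles lie far left of 0 for Tac2, Lhx9, Cbln1 and Calb2.

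Of 25 hypothalamus markers 5 were called lower in Amy than in Hippo and none higher, beside 0.539% and 0.412% of all genes. At the adjusted p 11 fell in Amy, beside 11.8% of all genes. Those called were led by Pmch, Calcr, Magel2, an imprinted gene of hypothalamic neurons (difference -2.03), and Trh. The median effect was -0.31 in Amy and -0.045 in Hippo. Per array the list's median was 0.69 to 0.89 in control Amy, 0.084 to 0.24 in CMS Amy and -0.025 to 0.035 in all of Hippo, so control Amy stood apart from the other groups. The median difference of -0.24 became -0.085 without control replicate 2 of Amy and -0.59 with a filter on low spread. What part hypothalamic tissue in the samples had in the fall of Pmch, Trh and Calcr was not tested. Amygdala markers had a median effect of -0.14 in Amy, where 8 of 21 fell and 2 rose at the adjusted p, beside 11.8% and 17.7% of all genes. Their median per array was 0.98 to 1.07 in control Amy and 0.96 to 1.05 in CMS Amy, and their median distance, Amy minus Hippo, was 1.39 in controls and 1.08 with CMS. Of the 21, 5 were called lower in Amy than in Hippo and none higher, among them Baiap3, Tac2, Lhx9 and Pnoc, which also stand on other lists.

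GABAergic interneuron markers were called lower for 4 of 27 and higher for 1, Vip, the vasoactive intestinal peptide gene, which had a difference of 1.02. The shares of all genes to set beside these and the following lists were 0.539% called lower and 0.412% called higher. The 4 called lower were Tac2, Calb2, Chodl and Gad2, the last a GABA-synthesizing enzyme that fell in Amy by 0.61 and rose in Hippo by 0.49 (difference -1.10, SE 0.086, limma, adjusted p = 7.77e-05). The median difference was -0.17, with a range of -0.23 to -0.068 over 22 alternatives. It was clearly nearer to 0 after quantile normalization and without CMS replicate 2, CMS replicate 3 or control replicate 2 of Amy, the last giving -0.068, and without CMS replicate 2 or control replicate 3 of Hippo. Of 25 neuropeptide precursors 6 were called lower and 2 higher, Vip and Pdyn, and of 39 peptide and hormone receptors 2 lower, Trhr and Calcr. Among 24 glutamate receptor and transporter genes Slc17a6 and the kainate receptor subunit Grik1 were called lower. Cerebellins and C1q-like genes, which bridge synapses, were called lower for 3 of 11, namely C1ql2, Cbln1 and C1ql3. C1ql2 is made by dentate granule cells and stood at 6.12, 6.09 and 6.14 in control Hippo and 5.73, 5.86 and 5.73 with CMS. In Amy it fell from 1.88, 1.52 and 1.61 to -1.19, -1.19 and -1.07 (difference -2.48, SE 0.12, limma, adjusted p = 8.78e-06).

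Lists of glial and ependymal cells held 1 or 2 calls each, where 0.951% of all genes were called in either direction. Agt, the angiotensin precursor from astrocytes, fell in Amy by 1.28 and rose in Hippo by 0.69 (difference -1.98, SE 0.13, limma, adjusted p = 4.06e-05), and was the 1 called of 20 astrocyte genes. Of 23 myelin and oligodendrocyte genes Gjb1, connexin 32, was called lower. At the adjusted p 11 were lower in Amy than in Hippo and none higher, beside 8.63% and 33.4% of all genes. Their median effect was -0.37 in Amy and -0.077 in Hippo. Of 21 microglia and macrophage genes Cd163, the hemoglobin scavenger receptor of perivascular macrophages, was called higher (difference 1.81). Ependymal markers were called lower for 2 of 20, Ccdc153 and Fam183b.

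Genes of the meninges and extracellular matrix went the other way, with 5 of 23 called higher in Amy than in Hippo and none lower. Over all genes 0.412% were called higher and 0.539% lower. Their median effect was 0.38 in Amy and -0.078 in Hippo. Ogn, the proteoglycan osteoglycin, read 0.99, 1.02 and 1.12 in control Amy and 1.50, 1.59 and 1.58 with CMS, and -1.03, -1.28 and -1.38 in control Hippo and -1.74, -2.17 and -1.96 with CMS. The groups were apart in both areas (difference 1.24, SE 0.16, limma, adjusted p = 0.000617). Crabp2, a retinoic acid carrier, Slc47a1, a cation exporter, and Lum, the proteoglycan lumican, had differences of 1.27, 1.22 and 1.02. Per array the list's median was -0.0039 to 0.039 in control Amy and 0.33 to 0.49 in CMS Amy, and in Hippo -0.51 to -0.38 in controls and -0.56 to -0.42 with CMS. The part of attached meninges in these values was not tested.

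Endothelial and mural genes had a median difference of 0.35, with Vwf, von Willebrand factor, the 1 called of 22. Vwf rose in both areas, by 2.62 in Amy and 1.21 in Hippo (difference 1.41, SE 0.24, limma, adjusted p = 0.00226). Of 23 cortical layer markers Ccn2 and Cplx3, a complexin of subplate neurons, were called higher. Striatum markers had a median effect of 0.40 in Amy and -0.012 in Hippo, but the 1 called of 22 was Ecel1, a peptidase gene, at -1.66. Per array the striatum median was 1.13 to 1.28 in control Amy and 1.60 to 1.79 in CMS Amy, and the part of neighbouring striatum was not tested.

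**Figure D5:**
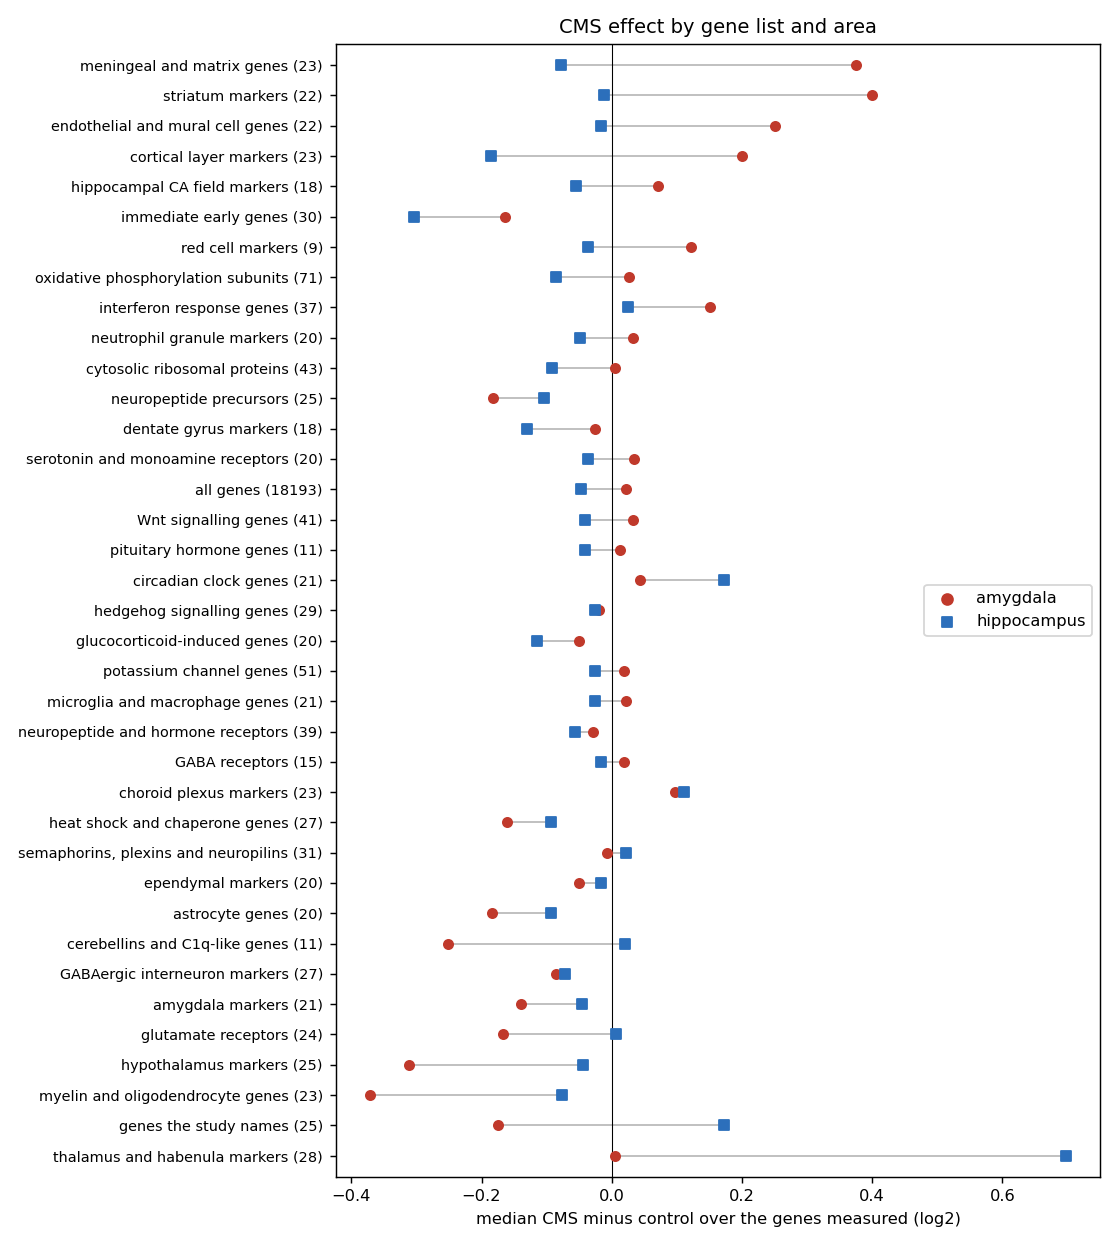
Median CMS effect over the measured genes of each list (x axis, log2, number of genes in brackets) in the amygdala (red circles) and the hippocampus (blue squares), ordered by the median difference. The thalamus and habenula list stands out at 0.0047 (amygdala) and 0.70 (hippocampus), whereas the meningeal and matrix list has the reverse order of the areas, at 0.38 and -0.078.

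Among responses usually tied to stress, the immediate early genes, transcribed within minutes of neuronal firing, had a median effect of -0.16 in Amy and -0.30 in Hippo. Egr2 was the 1 called of 30, with -1.08, -1.25 and -1.42 in control Hippo, -2.75, -2.67 and -2.50 in CMS Hippo and a smaller step in Amy that did not pass (limma, adjusted p = 0.185), from 0.047, 0.13 and 0.043 to -0.11, -0.19 and -0.0038 (difference 1.21, SE 0.13, limma, adjusted p = 0.000335). Fos and Npas4 had differences of 0.69 and 0.52 and were not called. In the gene averages no member was called in 12 lists. These were 20 glucocorticoid-induced genes, 27 heat shock and chaperone genes, 21 circadian clock genes, 37 interferon response genes and 71 subunits of oxidative phosphorylation. Further lists were 43 cytosolic ribosomal proteins, 51 potassium channel genes, 15 GABA receptor genes and 20 receptors for serotonin and other monoamines. The rest were 29 hedgehog pathway genes, 31 semaphorin pathway genes and 9 red cell genes. Single probe sets of some members did pass the call, among them 1 each of Htr1a (-1.75), Gabra3 (-1.52), Sema5b (1.15) and Nrp1 (-1.03). Together these lists hold 371 distinct genes, of which 131 were higher and 65 lower in Amy than in Hippo at an unadjusted p under 0.05 (limma), and 108 and 50 at an adjusted p under 0.05. By the latter count 34 of the 71 oxidative phosphorylation genes were higher and 4 lower in Amy than in Hippo, beside 33.4% and 8.63% of all genes. The largest gene-level differences there were 0.58 for Cox7c and 0.47 for Atp5a1. Of the 3 Atp5a1 probe sets 1 was called, and their differences ran from -0.055 to 1.38.

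Of markers of Hippo itself, Fibcd1, a chitin-binding receptor gene of CA1, was the 1 called of 18 for the CA fields, at -2.03. The dentate gyrus list had C1ql2 called lower and Pdyn, the prodynorphin gene, called higher among 18. Tcf7l2 was the 1 called of 41 Wnt pathway genes. Of 25 measured genes that the study names, 5 were called higher and 11 lower in Amy than in Hippo, but the study chose them on these arrays, so they are no independent evidence of direction.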

How the data were processed

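RNA of mouse amygdala and hippocampus was hybridised to Affymetrix whole-genome mouse arrays, with 3 arrays in each of 4 groups. The authors summarized the CEL files with GCRMA in GeneSpring GX and applied a baseline-to-mean normalization. The deposited values are log2 intensities whose median over the 24 arrays is 0 for each probe set, so levels and signal over background cannot be read, and the number of arrays limits the precision. Groups came from the sample labels. The sample descriptions give age ranges that rise from sample to sample, while the characteristics give 1 range, so age was not modelled.

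The 4 group means were fitted on the 12 arrays with limma 3.58.1 in R 4.3.3, two-sided, without a block, and p-values were adjusted over all 45037 probe sets (Benjamini-Hochberg). The threshold is that of the methods. Gene symbols came from the platform annotation (34945 probe sets with 1 symbol, 932 with several, 9160 with none), and probe sets of a gene were averaged. Opposite direction needed a called difference and an adjusted p under 0.05 for each area's effect. Lists were described by counts and medians, with no test.

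Named genes were the 10 largest differences in each direction among called probe sets with 1 symbol, the 10 opposite-direction genes per direction ranked by the smaller area effect, from each list the 4 called members of largest size at most (or 2 where none was called), and genes the study names. Other genes named were chosen after their values were seen. The members and lists were chosen with earlier results of these data known. Alternatives were other scalings, all 24 arrays, limma's trend and robust settings, weighted arrays, the replicate number as a block (statmod 1.5.0), a filter on low spread, other thresholds and leaving out each array. Leaving out of the lists the genes of the study's tables was added after seeing the data. The fit was tested on simulated data. Figures used matplotlib 3.10.9.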

Additional observations from a re-analysis of the deposited data

Results flagged for a closer look

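The effect of CMS differed between the amygdala and the hippocampus, by the limma test of the difference itself, at 898 probe sets, and 203 of them moved in opposite directions in the areas. The genes that did so by more than 2-fold in both areas were Ccn2, with a log2 difference of 2.07, Tac2 with -2.79 and Nhlh2 with -2.80. The other such probe set, without a gene symbol, differed by -2.41 (limma, adjusted p = 0.00376). The bacterial hybridisation controls, which entered no comparison, differed by 1.17 between the areas in the same contrast.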

How the results depend on the processing

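All 36 probe sets named for a large or an opposite difference stayed called in the same direction under the 23 alternatives run for them. They were chosen for their size on these same arrays, so this is no independent evidence. Dropping the size threshold, 1 of the alternatives, keeps every call by construction. Leaving out 1 array at a time gave 865 to 983 called probe sets, 268 to 325 higher and 582 to 673 lower in Amy, 157 to 230 opposite ones (54 to 78 with Amy up and 96 to 159 with Amy down), 167 to 199 called genes and 44 to 52 called list genes. Opposite probe sets with Amy up numbered 48 after quantile normalization and 32 after median centring, against 75, and 37 and 32 of the original ones remained. Array weights gave 307 opposite probe sets, 222 of them with Amy down. Without the size threshold the counts were 21462 called (17690 higher, 3772 lower), 5510 opposite (5037 with Amy up, 473 with Amy down), 7639 genes and 391 list genes. Testing against a difference of 0.5 (limma's treat) called 351 probe sets, and requiring both area effects past 1 left 4 opposite ones. Without the genes of the study's tables, an alternative chosen after seeing the data, 31 list genes in place of 51 were called. Of called probe sets 31.7% were higher in Amy as deposited, 36.9% after quantile normalization and 24% after median centring. The causes of these shifts were not tested, except that a looser or stricter threshold and fewer genes change counts by construction.

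No pairing by replicate number showed in the correlation of deviations from the group means. It was -0.045 to 0.027 over the 6 pairs of same-numbered arrays of Amy and Hippo, and -0.034 to 0.043 over 12 differently numbered pairs. A correlation near 0 cannot tell whether same-numbered arrays came from the same mice. With the number as a fixed block within treatment 809 probe sets were called, 806 of them shared with the fit without it, and a random block called 900 and a block over all groups 874. The centred table gives no signal over background, so a low fold cannot be told from a dim probe set.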
